A study of Mus musculus with 6 samples.

Results

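The Nduf genes of nuclear DNA encode the subunits of mitochondrial complex I (NADH:ubiquinone oxidoreductase) and a set of its assembly factors. They were followed here in activated mouse T cells. Every gene of the count table whose identifier maps to a protein-coding mouse symbol that starts with Nduf was taken, which gave 46 of 52550 genes. Of these, 36 encode complex I subunits, with 16 in the matrix arm, 19 in the membrane arm and 1 acyl carrier protein, Ndufab1. A further 8 are assembly factors (Ndufaf1 to Ndufaf8), and 2 carry the name but lie outside complex I (Ndufa4 and Ndufa4l2).

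RNA was sequenced from CD3+ T cells of WT mouse spleen, all stimulated with an anti-CD3/CD28 activator for 24 h. In 3 samples the cells were stimulated alone (TCR alone), and for 3 samples the labels name the small molecule DMGV (dimethylguanidino valeric acid) as added, at 100 ng/ml (TCR+DMGV). The labels number the samples of each group as biological replicates 1 to 3. The legend that the study gives for this experiment names the added agent LNY1, the factor purified from fibroblast medium, at the same dose and time. The study equates LNY1 with the dimethylarginines ADMA and SDMA, which cells convert to DMGV, and not with DMGV itself. Which agent these cells received cannot be told from these sources, and the name DMGV of the labels is used here. The study's methods give male and female mice a few weeks old for its animals in general and do not say which gave these samples, and the cells were a mixed CD3+ population and not a single T cell subset.

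Complex I takes electrons from NADH, passes them through a chain of iron-sulfur clusters to ubiquinone and pumps protons across the inner mitochondrial membrane. The tip of its matrix arm (the N module) oxidises NADH, the base of that arm (the Q module) reduces ubiquinone, and the membrane arm pumps protons. The membrane core subunits are encoded by mitochondrial DNA, and the nuclear genes supply the matrix core and the accessory subunits. Complex I is also a known site of superoxide formation, and respiratory capacity grows as resting T cells become activated.

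The counts summed to between 37758725 and 43718867 per sample, which is more than the read depth the labels give, so a count is not taken here as a single sequenced read. Of the 46 Nduf genes, 45 passed the filter for low counts, as did 14786 genes in all. Markers of T cells were detected in every sample, with a summed level of 4799 to 5434 CPM (counts scaled to the library size) in TCR alone and 5222 to 5615 in TCR+DMGV over 15 of 15 markers tested. The summed markers of B cells were at 249.9 to 275 CPM in TCR alone and 251 to 258 in TCR+DMGV, those of myeloid cells at 38.8 to 51.1 and 43.9 to 51.2, and those of NK cells at 76.4 to 85.3 and 81.0 to 89.4. Erythroid markers summed to 4.01 to 5.37 and 2.36 to 3.88 CPM, and 9 of 10 neutrophil markers were at 0 in all samples. Gene by gene, the fitted log2 fold change (TCR+DMGV over TCR alone) was above 0 for all 15 T cell markers, with a median of 0.10, against 50.6% of all genes. It was above 0 for 1 of 7 tested B cell, 4 of 8 myeloid, 4 of 5 NK and 1 of 5 erythroid markers. None passed after adjustment over all genes tested. The 7 complex I genes of mitochondrial DNA were listed at 0 in every sample, so the membrane core was not analysed here.

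Levels were compared between genes per length, as FPKM (fragments scaled to transcript length and to the sample's total). The deposited gene values are lower than the sum of the deposited values of a gene's transcripts by more than 2 times for 12 of the 46 genes, so both were used and the order of levels depends on the choice. By summed transcript FPKM, the mean level of the 36 subunits over 6 samples ranged from 8.03 for Ndufc1 to 84.9 for Ndufc2, both small subunits of the proximal membrane arm, with a median of 49.5. By gene FPKM the same genes ran from 2.28 for Ndufb2 to 76.1 for Ndufc2, with a median of 27.7. Ndufc2 was thus the most abundant subunit on both scales, whereas the lowest differed between them.

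Assembly factors, which help to build the complex but are not part of the finished enzyme, had a lower median level than the subunits. The ranges overlapped on both scales. All 8 lay below the median subunit in summed transcript FPKM, from 4.12 for Ndufaf3 to 22.3 for Ndufaf8, with a median of 13.1. In gene FPKM their median was 9.21. Among the core subunits of the matrix arm, Ndufv1, which binds NADH and the flavin, was at 33.8 ± 2.36 (SD, n = 6 samples) summed transcript FPKM. Ndufa4, now known as a subunit of cytochrome c oxidase, stood above all complex I subunits at 139.7 summed transcript FPKM, but in gene FPKM its 62.2 lay below that of Ndufc2.

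**Figure D1:**
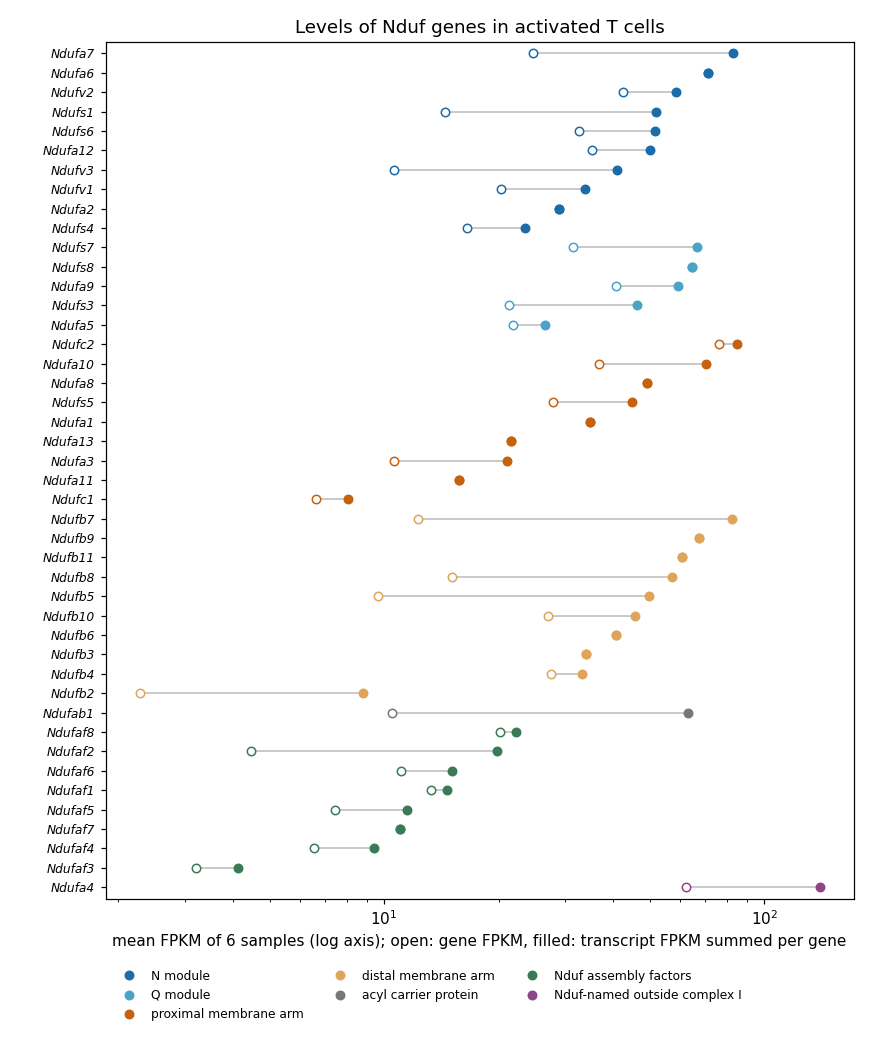
Mean FPKM of 44 tested Nduf genes over 6 samples on a log axis, grouped by module. Filled circles give the summed transcript FPKM and open circles the deposited gene FPKM, joined by a line; assembly factors reach 22.3 at most on the summed scale, and the long lines of Ndufab1, Ndufb5 and Ndufb7 show how far the 2 scales part.

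The promoters of these genes were searched for 4 short motifs on both strands, in 250 bases before and 50 after each RefSeq start (GRCm38.p6), and 40 of the 46 genes had an entry. The letters GCATGCGC of the NRF1 motif were found in 12.5% of these genes against 3.05% of all 27025 genes with a promoter, and AAGATGGC of the YY1 motif in 20% against 3.19%. The YY1 matches, in 8 genes, all lay after the start, at 10 to 38 bases from it. TGACGTCA, the cAMP response element (CRE), was found in 7.5% against 2.03%, and CCGGAAGT, the core bound by GABP and other ETS factors, in 2.5% against 4.31%. These shares describe letters in a window and not binding. Sequences are shown for 2 genes whose motif lies before the start outside annotated exons, Ndufaf4 with NRF1 on chr4:24897833-24898082 (+ strand) and Ndufb2 with CRE on chr6:39592465-39592564 (+ strand), with the motif in capitals. In Ndufaf4 the capitals hold 2 overlapping NRF1 matches, 1 on each strand, 113 and 111 bases before the start.
Ndufaf4: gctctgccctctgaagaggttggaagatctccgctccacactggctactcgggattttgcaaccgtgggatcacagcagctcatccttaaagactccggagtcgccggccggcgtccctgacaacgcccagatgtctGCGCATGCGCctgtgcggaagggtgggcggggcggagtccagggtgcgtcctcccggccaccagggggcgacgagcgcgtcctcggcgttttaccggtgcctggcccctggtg
Ndufb2: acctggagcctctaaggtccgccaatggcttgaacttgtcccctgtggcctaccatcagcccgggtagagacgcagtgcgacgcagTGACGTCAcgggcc

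The question of the comparison was whether transcripts of complex I differ when the agent labelled DMGV is present during activation. No Nduf gene passed the test, since 0 of 45 fell under 0.05 after Benjamini-Hochberg adjustment of edgeR's quasi-likelihood p-values, where 0.0135% of all genes did. The lowest adjusted p of a member was 0.999. At an unadjusted p under 0.05 there was 1 member higher in TCR+DMGV, Ndufa12, where 1.63% of all genes were higher, and none lower, where 1.56% were lower. DESeq2, run as an alternative, gave 0 members past the adjusted threshold, as against 14 of 22526 genes in all. At an unadjusted p under 0.05 it gave 2 members, where 2.22% of all genes were so placed. The estimates were small and leaned to one side. The fitted log2 fold change (TCR+DMGV over TCR alone) was above 0 for 41 of 45 members against 50.6% of all genes, with a median of 0.13 against 0.0024. In bulk RNA of mixed T cells, a difference in the cells present and one in the RNA per cell cannot be told apart.

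That lean did not separate the samples. The 2 groups stood apart in CPM for 2 members higher in TCR+DMGV, Ndufc1 and Ndufab1, where 4.92% of all genes were so placed, and for 1 member lower, Ndufaf6, where 3.94% were. For the other 42 members at least 1 sample of one group lay within the range of the other. TCR alone replicate 1 was the lowest of the 6 samples for 31 of 45 members (21.8% of all genes), and TCR+DMGV replicate 3 was the highest for 25 (15.2% of all genes). Without TCR alone replicate 1 the median log2 fold change was 0.045 and 30 members were above 0, and without TCR+DMGV replicate 3 it was 0.072 with 35 above 0. A correction for gene length gave a median of 0.068 with 34 above 0.

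**Figure D2:**
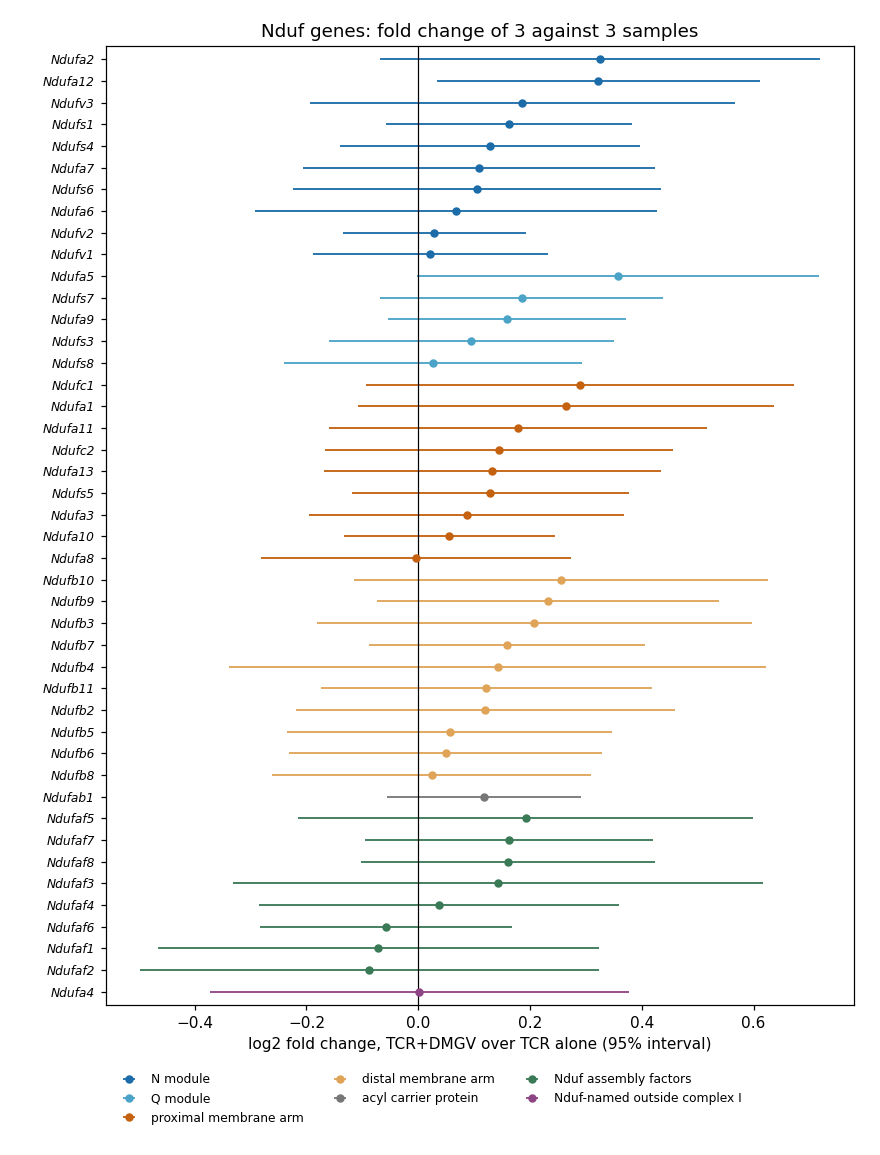
Log2 fold change of 44 tested Nduf genes (TCR+DMGV over TCR alone, 3 samples each) with its unadjusted 95% interval from edgeR, grouped by module. All points but 4 lie right of 0, and the interval of Ndufa12 alone lies wholly on one side of 0.

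The N module held 10 genes, all 10 with an estimate above 0 and none past the adjusted threshold, and their median log2 fold change was 0.12. Ndufv1, the subunit that binds NADH, was at 52.9, 58.1 and 60.6 CPM in TCR alone and 60.8, 56.7 and 56.8 CPM in TCR+DMGV replicates 1 to 3. The groups overlapped and their means were nearly equal, with a log2 fold change of 0.022 (SE 0.089). Ndufv2, which carries an iron-sulfur cluster beside Ndufv1, was at 93.9, 91.9 and 96.1 CPM in TCR alone and at 97.9, 93.5 and 96.2 CPM in TCR+DMGV. All 6 values lay close together and the log2 fold change was 0.029, with a 95% interval from -0.13 to 0.19. Ndufs1, the largest subunit, which holds further clusters, was at 127, 137 and 111 CPM in TCR alone and at 143, 136 and 140.0 CPM in TCR+DMGV. TCR alone replicate 3 was low and replicate 2 lay within the treated range, and the log2 fold change was 0.16 (SE 0.094).

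Ndufa12 (ENSMUSG00000020022.16, chromosome 10, 94198720 to 94221443, + strand in GENCODE M21 on GRCm38), an accessory subunit of the N module, had the smallest unadjusted p of all members. It was at 43.7, 44.0 and 53.2 CPM in TCR alone and at 58.0, 52.7 and 65.3 CPM in TCR+DMGV. TCR alone replicate 3 lay just above TCR+DMGV replicate 2, and the other samples kept to their sides. The log2 fold change was 0.32 (SE 0.12), with an unadjusted p of 0.033 and, by edgeR, an adjusted p of 0.999. Ndufa2, another accessory subunit at the tip of the arm, was at 13.9, 14.9 and 20.5 CPM in TCR alone and at 20.98, 18.6 and 22.2 CPM in TCR+DMGV, again with TCR alone replicate 3 inside the treated range. Its log2 fold change was 0.33 (SE 0.17, adjusted p = 0.999 by edgeR). The remaining 5 accessory genes of the module, Ndufv3, Ndufs4, Ndufs6, Ndufa6 and Ndufa7, had log2 fold changes between 0.067 and 0.19. Of these, Ndufs4 is known from inherited complex I deficiency and its mouse model.

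The Q module held 6 genes, all with an estimate above 0, a median log2 fold change of 0.13 and none past the adjusted threshold. Ndufs7, which carries the last cluster before ubiquinone, was at 54.5, 51.3 and 65.1 CPM in TCR alone and at 62.8, 66.4 and 65.1 CPM in TCR+DMGV. Only TCR alone replicate 3 reached the treated range, and the log2 fold change was 0.19 (SE 0.11). Ndufs3, a core subunit without a cluster, and Ndufs8, which carries clusters next to Ndufs7, had log2 fold changes of 0.095 (SE 0.11) and 0.027 (SE 0.11). In Ndufs8 the highest value was TCR alone replicate 2 at 76.5 CPM.

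Ndufa5 (ENSMUSG00000023089.12, chromosome 6, 24518666 to 24528013, - strand), an accessory subunit that joins the Q module early in assembly, had the highest estimate of all members. The study itself named it from these samples, so its direction is not independent evidence. It was at 21.8, 25.3 and 19.9 CPM in TCR alone and at 25.1, 26.3 and 34.2 CPM in TCR+DMGV. TCR alone replicate 2 lay just above TCR+DMGV replicate 1, and TCR+DMGV replicate 3 stood apart from the other samples. The log2 fold change was 0.36 (SE 0.15), with an unadjusted p of 0.051 and, by edgeR, an adjusted p of 0.999. Without TCR+DMGV replicate 3 it was 0.21. Ndufa9, the other accessory subunit of the module, had a log2 fold change of 0.16 (SE 0.091).

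**Figure D3:**
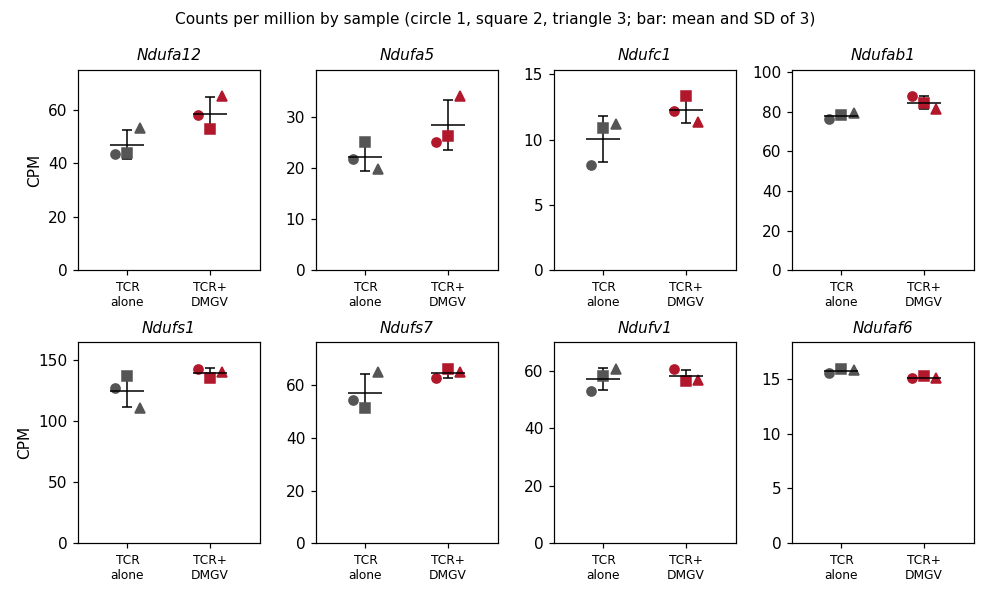
CPM in each of 6 samples for 8 Nduf genes, with the mean and SD of 3 samples per group as bars and the replicate as the symbol; each axis starts at 0. Groups overlap for Ndufa12, Ndufa5, Ndufs1, Ndufs7 and Ndufv1, lie apart and higher in TCR+DMGV for Ndufc1 and Ndufab1, and apart and lower for Ndufaf6.

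The membrane arm held 19 genes, 18 with an estimate above 0 and none past the adjusted threshold. The median log2 fold change was 0.13 in both its proximal part (9 genes) and its distal part (10 genes), against 0.12 for the 16 genes of the matrix arm. These medians moved with single libraries. Without TCR alone replicate 1 they were 0.045, 0.053 and 0.047, and without TCR alone replicate 3 the proximal and distal medians were 0.19 and 0.24. Ndufc1 (ENSMUSG00000037152.11, chromosome 3, 51404677 to 51408988, - strand), a small subunit of the proximal part, was at 8.03, 10.9 and 11.2 CPM in TCR alone and at 12.2, 13.4 and 11.4 CPM in TCR+DMGV. In CPM all treated samples were above all untreated ones, although the gap between TCR alone replicate 3 and TCR+DMGV replicate 3 was narrow. In deposited gene FPKM TCR alone replicate 3 lay above TCR+DMGV replicate 3, at 6.83 against 6.58. The log2 fold change was 0.29 (SE 0.16, adjusted p = 0.999 by edgeR), and without TCR alone replicate 1 it was 0.13. Ndufa8, also in the proximal part, was the subunit of the lowest estimate at -0.0039 (SE 0.12), with 42.6, 45.3 and 55.1 CPM in TCR alone and 47.1, 50 and 45.4 CPM in TCR+DMGV. TCR alone replicate 3 was the highest and replicate 1 the lowest of its values.

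In the distal part, Ndufb9, a subunit that binds acyl carrier protein, was at 38.7, 49.3 and 48.2 CPM in TCR alone and at 59.8, 48.4 and 51.9 CPM in TCR+DMGV. TCR alone replicate 1 was low and TCR+DMGV replicate 1 high, with the other samples mixed. The log2 fold change was 0.23 (SE 0.13), and the other 9 genes of the distal part lay between 0.024 for Ndufb8 and 0.26 for Ndufb10. TCR alone replicate 1 was the lowest sample for all 9 proximal genes and for 8 of the 10 distal ones. Ndufab1, the mitochondrial acyl carrier protein, which is bound in both arms and also serves fatty acid and lipoic acid synthesis, was at 76.6, 78.3 and 79.4 CPM in TCR alone and at 88.1, 84.5 and 81.5 CPM in TCR+DMGV. The groups did not overlap, and the log2 fold change was 0.12 (SE 0.074, adjusted p = 0.999 by edgeR).

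Among the 8 assembly factors, 5 had an estimate above 0 and 3 below, with a median log2 fold change of 0.090 and none past the adjusted threshold. Without TCR+DMGV replicate 3 that median was 0.0079. Ndufaf1, which acts in building the membrane arm, was at 22.6, 26.3 and 19.96 CPM in TCR alone and at 23.4, 24.8 and 17.4 CPM in TCR+DMGV. TCR+DMGV replicate 3 was the lowest sample, and the log2 fold change was -0.072 (SE 0.17). Ndufaf2, a relative of Ndufa12 that occupies its place until the N module is attached, was at 14.5, 18.0 and 14.0 CPM in TCR alone and at 12.6, 13.3 and 17.9 CPM in TCR+DMGV. Replicate 2 of the first group and replicate 3 of the second were high, and the log2 fold change was -0.088 (SE 0.18). Ndufaf6 (ENSMUSG00000050323.14, chromosome 4, 11051045 to 11076205, - strand), needed early in assembly, was at 15.5, 16.0 and 15.8 CPM in TCR alone and at 15.1, 15.3 and 15.1 CPM in TCR+DMGV. Its groups did not overlap, but the log2 fold change of -0.058 was smaller than its SE of 0.096.

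Ndufaf3 and Ndufaf4 work together on the Q module. Ndufaf3 was the scarcest of the factors by CPM, at 5.48, 6.76 and 6.52 in TCR alone and 6.36, 5.64 and 8.73 in TCR+DMGV, with a log2 fold change of 0.14 (SE 0.20). Ndufaf4 was at 32.4, 26.7 and 26.2 CPM in TCR alone and at 25.5, 28.8 and 33.2 CPM in TCR+DMGV, with a log2 fold change of 0.038 (SE 0.14). Both overlapped between groups.

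The factors that modify arginines of the Q module were also near their spread. Ndufaf5, which hydroxylates an arginine of Ndufs7, was at 13.4, 16.6 and 11.98 CPM in TCR alone and at 13.1, 17.3 and 17.5 CPM in TCR+DMGV, with a log2 fold change of 0.19 (SE 0.17). Ndufaf8, its partner protein, was at 16.5, 17.3 and 19.7 CPM in TCR alone and at 19.2, 19.4 and 21.3 CPM in TCR+DMGV, with a log2 fold change of 0.16 (SE 0.11). Ndufaf7, an arginine methyltransferase, was at 28.1, 28.0 and 24.5 CPM in TCR alone and at 31.5, 27.0 and 31.9 CPM in TCR+DMGV, with a log2 fold change of 0.16 (SE 0.11). In each of these 3 genes 1 or more treated samples lay within the range of the untreated ones.

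Ndufa4 and Ndufa4l2 bear the name of complex I without belonging to it. Ndufa4 was at 81.6, 86.7 and 121 CPM in TCR alone and at 96.1, 88.3 and 105 CPM in TCR+DMGV. TCR alone replicate 3 was the highest sample and the log2 fold change was 0.0020 (SE 0.16). Its sign turned under other scalings, to -0.0052 with DESeq2-style size factors in edgeR and to -0.016 with library size alone. Ndufa4l2, a paralogue known to be induced in hypoxia, had counts of 4, 0 and 4 with TCR alone and 0 in all 3 samples of TCR+DMGV, failed the filter and was not tested.

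By sample, the 4 modules of the enzyme showed a similar order. The median log2 deviation of the 36 subunits from their 6-sample means was -0.21, -0.043 and 0.059 in TCR alone replicates 1, 2 and 3 and 0.11, -0.028 and 0.15 in TCR+DMGV. TCR alone replicate 1 stood below the rest, and TCR alone replicate 3 lay above TCR+DMGV replicate 2. The assembly factors did not follow this order, with -0.026, 0.051 and -0.11 in TCR alone and -0.033, -0.0043 and 0.20 in TCR+DMGV. The deviations of all genes tested were between 0.0043 and 0.025. Cytosolic ribosomal protein genes, a group of short and abundant transcripts outside the mitochondrion, had -0.25, -0.039 and 0.079 in TCR alone and 0.090, -0.015 and 0.17 in TCR+DMGV, with 75 of 76 estimates above 0, a median log2 fold change of 0.15, 0 past the adjusted threshold and 4 at an unadjusted p under 0.05. All 4 were higher in TCR+DMGV, where 1.63% of all genes were. The part of what these genes share with the subunits, such as transcript length, in the lean of the Nduf genes was not tested beyond the length correction given above.

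**Figure D4:**
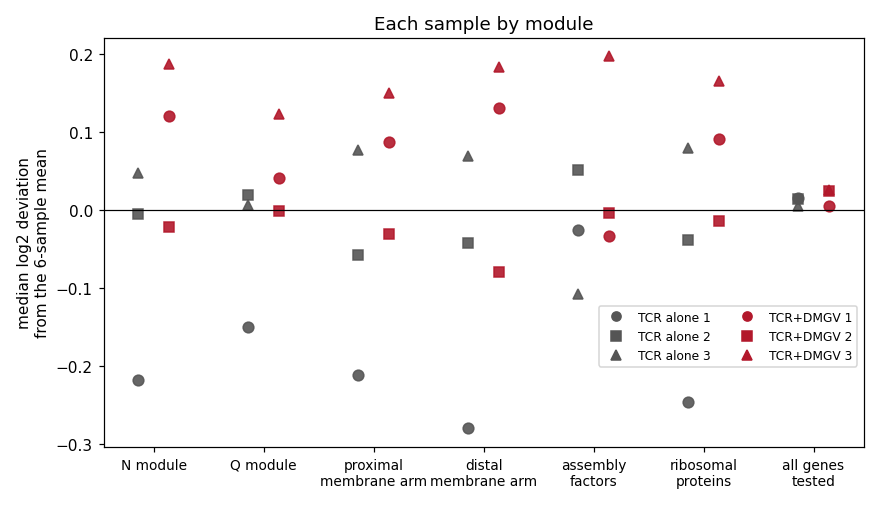
Median log2 deviation from the 6-sample mean for each sample (grey TCR alone, red TCR+DMGV, symbol by replicate) in 4 modules of complex I, its assembly factors, ribosomal protein genes and all genes tested. TCR alone replicate 1 is lowest in all 4 modules and in ribosomal protein genes, the groups overlap in each of these columns, and all genes tested lie near 0.

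Transcripts of the Nduf genes were tested in the same way. Of 199 annotated transcripts of members with a row in the table, 134 passed the filter, and 0 of them passed the adjusted threshold, as was the case for 0.0% of 38401 transcripts. At an unadjusted p under 0.05 there were 4 (3 higher and 1 lower), against 3.22% of all transcripts. The leading transcript was protein coding for all 45 tested genes and held a median of 94.8% of a gene's counts. Of the 4, 1 is a protein-coding transcript, of Ndufab1, at 27.8, 31.0 and 31.1 CPM in TCR alone and 35.1, 37.1 and 43.7 CPM in TCR+DMGV, with a log2 fold change of 0.37 (SE 0.14, adjusted p = 1.000 by edgeR). The other 3 are transcripts with a retained intron. That of Ndufab1 was counted at 105, 31 and 22 in TCR alone replicates 1 to 3, and 3, 2 and 5 with DMGV. That of Ndufb8 was counted at 1 in each TCR alone sample, and 12, 187 and 27 with DMGV. That of Ndufs7 was counted at 5, 6 and 14 in TCR alone samples, and 22, 25 and 18 with DMGV. Each of the retained-intron forms held under 2% of its gene's counts over all samples. Each also had low counts in the lower group, and the filter by group keeps forms counted mainly in the other. Their differences are therefore not read as a result, and the 4 of 134 stand beside the 3.22% of all transcripts. Most counts of the Ndufb8 form came from TCR+DMGV replicate 2.

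Single samples could also differ in which transcript was counted. A minor protein-coding transcript of Ndufv2 held 31.3% of the counts of that gene in TCR alone replicate 3, with 1245 counts, and between 0.105% and 1.12% in the other 5 samples, with 4 to 45 counts. The summed counts of Ndufv2 did not show this difference. Its summed transcript FPKM did, at 70.8 in TCR alone replicate 3 and 53.1 to 59.2 in the other 5 samples.

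The other genes of the pathway were read from lists of known function. Of 13 tested assembly factors without an Nduf name, 9 had an estimate above 0, with a median of 0.098 on the log2 scale. For all genes the share above 0 was 50.6% and the median 0.0024. The corresponding counts and medians were 12 of 16 with 0.065 for iron-sulfur cluster assembly, which makes the cofactors of the matrix arm, 8 of 13 with 0.065 for synthesis of ubiquinone, the electron acceptor, and 7 of 9 with 0.048 for other enzymes that reduce ubiquinone. Subunits of complex III, which oxidises ubiquinol, gave 7 of 9 with 0.13, carriers and shuttles of NADH 4 of 8 with -0.0075, and factors of mitochondrial transcription and biogenesis 6 of 13 with -0.0056. By edgeR, 0 of these genes passed the adjusted threshold, where 0.0135% of all genes did. At an unadjusted p under 0.05 there was 1 gene, higher in TCR+DMGV, in each of the lists for iron-sulfur cluster assembly, ubiquinone synthesis, complex III and NADH shuttles, and 1 higher and 1 lower in the list for biogenesis. Of all genes, 1.63% were higher and 1.56% lower at this level.

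By the smallest p in each list, Uqcr10 of complex III, which the study also named from these samples so that its direction is not independent evidence, was at 57.9, 64.3 and 67.2 CPM in TCR alone and at 79.5, 73.9 and 95.01 CPM in TCR+DMGV. The groups did not overlap, with a log2 fold change of 0.39 (SE 0.12, adjusted p = 0.999 by edgeR). Gabpb1, a subunit of the GABP factor whose sites are known in promoters of respiratory genes, was at 77.2, 68.2 and 64.7 CPM in TCR alone and at 43.6, 42.5 and 40.9 CPM in TCR+DMGV. All treated samples were below all untreated ones, with a log2 fold change of -0.73 (SE 0.096), but edgeR's adjusted p was 0.24. The other genes so chosen had an adjusted p of 0.999, with log2 fold changes of 0.70 for Isca1 of cluster assembly, 0.46 for Coq8a of ubiquinone synthesis, 0.22 for Slc25a12 of the NADH shuttles, 0.21 for the assembly factor Tmem186 and 0.18 for Prodh.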

How the data were processed

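Per the labels and the study's methods, libraries were prepared with an mRNA kit (Vazyme) that is not stated to keep the strand. The authors filtered reads with SOAPnuke, mapped them with HISAT2 2.0.4 and estimated expression with StringTie, and they deposited whole-number counts and FPKM per gene and transcript. How coverage became counts is not given in the sources used here. The processing notes name mm9, while 99.7% of gene identifiers match GENCODE M21 (GRCm38), whose symbols were used. Overlapping genes lie at 21 members, 18 on the other strand, whose reads cannot be told apart.

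Counts were tested with edgeR 4.0.16 (quasi-likelihood, TMM, default filter, two-sided, Benjamini-Hochberg adjustment, threshold 0.05) in R 4.3.3, checked on simulated data. CPM are TMM-scaled. Alternatives used DESeq2 1.42.0, limma 3.58.1, other scalings and filters, length and GC corrections and samples left out in turn. The members and lists were chosen with earlier results of these data known. Genes named were the matrix core subunits, Ndufa5, the 5 members of smallest p, members below 0, all assembly factors, Ndufa4, Ndufa4l2, the highest and lowest in FPKM and the gene of smallest p in each pathway list. Others were named after their values were seen. The single values of 1 member, which stays in all counts and medians, are not reported here.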

Additional observations from a re-analysis of the deposited data

Results flagged for a closer look

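Among genes with an Nduf symbol that are not protein coding, and so outside the comparison, 3 had counts in all samples. Ndufb1-ps, annotated as a long noncoding RNA at a bidirectional promoter although Ndufb1 itself is a known complex I subunit, had 463 to 672 counts per sample, with 12.2, 16.3 and 12.5 CPM in TCR alone and 15.1, 13.4 and 15.8 CPM in TCR+DMGV. Its log2 fold change was 0.11 (SE 0.15) and the groups overlapped. The processed pseudogene Ndufb4c had 36 to 87 counts, and the processed pseudogene Ndufab1-ps had 16 to 57. Reads of a pseudogene and of its parent gene can be exchanged in counting, so these counts and, to that extent, those of Ndufb4 and Ndufab1 are uncertain. A further 2 pseudogenes, Ndufa11b and Ndufs6b, had at most 4 and 2 counts in any sample.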

How the results depend on the processing

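No Nduf gene passed the adjusted threshold in any of 11 alternatives with all samples or with any of the 6 samples left out (lowest adjusted p 0.649, without TCR alone replicate 3), and the sign of 26 of the 44 fold changes reported held throughout. The median log2 fold change of members stayed above 0, from 0.068 to 0.13 with all samples and from 0.045 to 0.18 with a sample left out. With a sample left out the medians ran from 0.034 to 0.18 for the N module, 0.073 to 0.17 for the Q module, 0.045 to 0.19 for the proximal and 0.053 to 0.24 for the distal membrane arm and 0.0079 to 0.13 for assembly factors. With all samples the count of members above 0 ran from 34 (length correction, 48.9% of all genes) to 42 (replicate block, 51.8%). With a sample left out it ran from 30 (without TCR alone replicate 1, 49.2%) to 41 (without TCR alone replicate 2, 51.3%). Members at an unadjusted p under 0.05 are given here with the share of all genes so placed. They numbered 2 with a CPM minimum of 1 (3.19%), DESeq2 (2.22%) and the GC correction (4.10%). Limma gave 2 on log2(FPKM + 1) (3.40%) and 2 on log2(FPKM + 0.1) (3.15%). The length correction gave 0 (2.86%), and leaving a sample out gave 0 to 5. The 5 came without TCR alone replicate 3, where 7.30% of all genes were so placed against 3.19% with all samples. Without TCR alone replicate 1 (2.89%) or TCR+DMGV replicate 3 (2.42%) the count was 0. For transcripts of members this count ran from 2 to 6 with a sample left out, with the 6 again without TCR alone replicate 3. The share of all transcripts in those settings is not given here, so these counts are not read as a result. On deposited gene FPKM 1 member and not 2 lay apart and higher. It was a different gene, Ndufa5, at most 21.3 in TCR alone and at least 22.1 in TCR+DMGV. The groups of Ndufc1 and Ndufab1 overlapped on that scale. The share of all genes apart in FPKM is not given here. The median level of subunits was 49.5 by summed transcript FPKM. The replicate numbers did not pair the samples (correlations of same-numbered samples -0.15, 0.12 and -0.15 across genes). The highest correlation between groups was 0.31, for TCR alone replicate 3 with TCR+DMGV replicate 1, so samples of different number did share some variation. The replicate block left 0 members past the adjusted threshold and 42 above 0, with Ndufa8 at 0.0040.

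Other signs turned as well, and the cause was not tested. The turned values reached as far from 0 as -0.12, for Ndufa4 without TCR alone replicate 1. With the length correction the log2 fold changes were -0.059 for Ndufa4, -0.015 for Ndufa6, -0.035 for Ndufb6, -0.042 for Ndufs8, -0.0063 for Ndufv1 and -0.018 for Ndufv2. With the GC correction they were -0.0036 for Ndufa4, -0.011 for Ndufs8 and -0.014 for Ndufv1. Ndufa4 was at -0.0052, -0.016 and -0.0046 with DESeq2-style size factors, library size alone and DESeq2. With samples left out in turn, the ranges that crossed 0 were -0.0035 to 0.12 for Ndufa10, -0.12 to 0.21 for Ndufa4, -0.069 to 0.17 for Ndufa6, -0.021 to 0.22 for Ndufa7, -0.096 to 0.12 for Ndufa8, -0.17 to 0.070 for Ndufaf1, -0.26 to 0.028 for Ndufaf2, -0.059 to 0.27 for Ndufaf3, -0.066 to 0.12 for Ndufaf4, -0.017 to 0.24 for Ndufb2, -0.054 to 0.27 for Ndufb4, -0.045 to 0.12 for Ndufb5, -0.038 to 0.15 for Ndufb6, -0.11 to 0.10 for Ndufb8, -0.031 to 0.17 for Ndufs6, -0.095 to 0.098 for Ndufs8 and -0.048 to 0.071 for Ndufv1. With 3 samples a group the SE of a member's log2 fold change ran from 0.069 to 0.20, so a difference near the median of 0.13 was not detectable in a single gene.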
